A study of Mus musculus with 32 samples.

Results

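Cortical and hippocampal interneurons are sorted into subtypes by a short list of genes, and 10 of these genes are described here in single mouse neurons: the neuropeptide precursors Sst, Npy, Vip, Cck and Tac1, the calcium-binding proteins Pvalb, Calb1 and Calb2, the secreted glycoprotein Reln and the neuronal nitric oxide synthase Nos1. They were chosen by name and not by their values, although earlier results of these data were known. All 10 have a row among the 44081 genes of the 3′UTR count table. The cells came from the hippocampus of C57BL/6 mice at embryonic day 18 and had been in culture for 15 days. For 16 isolated neurons, soma and dendrites were taken up into separate tubes, which gave 16 soma libraries and 16 dendrite libraries paired by cell. Both compartments of neurons 1 to 4 went through 3 rounds of aRNA amplification (copying of poly-adenylated RNA by in vitro transcription) and those of neurons 5 to 16 through 2 rounds, and the labels give a spike-in dilution of 0 for neurons 1 and 2 (59 to 80 spike-in reads per library) and a diluted spike-in for the others. No group was treated and all neurons shared strain, age and culture time, and the sources used here do not say which neurons shared a culture or an embryo.

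Interneurons release GABA, made by the enzymes Gad1 and Gad2 and loaded into vesicles by the transporter Slc32a1. In the hippocampus, parvalbumin cells fire fast and contact the cell body region, somatostatin cells contact distal dendrites, VIP cells mostly contact other interneurons, CCK basket cells carry cannabinoid receptors, and neurogliaform cells often hold Npy, Reln and Nos1. Neuropeptides are made as precursors in the soma and travel in dense-core granules, while the calcium-binding proteins stay in the cytoplasm and buffer calcium.

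Libraries had between 646521 and 6954420 reads on 3′UTRs in dendrites (median 1605714) and between 925525 and 21169974 in somas (median 6165691). Levels are given as normalized reads, the count divided by the DESeq2 median-of-ratios size factor of its library, and a gene was called detected in a library with at least 10 reads. Without molecular identifiers, reads from one molecule cannot be told from reads of several. A count of 0 allows up to 3 reads, which is 0.371 to 11.5 normalized reads across somas and 0.893 to 14.5 across dendrites, for counting error only. The dendrites of neurons 12, 15 and 16 stood apart, with 3794, 1570 and 2485 detected genes against a dendrite median of 6052.5, and with 25.8%, 35.8% and 32.4% of reads on mitochondrially encoded genes. The changes between compartments and the correlations that involve dendrites are therefore also given without these neurons, and other dendrite values are not. Counts are relative within a library, so less RNA of a gene and more RNA of other genes cannot be told apart.

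Every neuron carried the GABA genes. Gad1 was detected in all 16 somas, from 2684 to 32260 normalized reads with a median of 17150, and in all 16 dendrites, from 264 to 12460. Gad2 was likewise detected in all 32 libraries, with 1158 to 16890 normalized reads in somas, and Slc32a1 was detected in 16 somas and 15 dendrites. Of the genes of glutamatergic neurons, the vesicular transporter Slc17a7 was detected in 10 somas and 13 dendrites with a soma median of 11.2 normalized reads, and its relative Slc17a6 in 1 soma and 2 dendrites. The transcription factor Neurod6 was detected in 8 somas and 8 dendrites, and the kinase Camk2a in 12 somas and 13 dendrites. Of 11 GABAergic markers, 7 to 11 were detected in a soma (median 11), against 0 to 8 of 10 glutamatergic markers (median 3.5). The soma of neuron 2 held the most glutamatergic markers, 8 of the 10, and those of neurons 7 and 14 held 7. The soma of neuron 2 stood apart in Neurod6, at 6380 normalized reads against 539 in the next soma. It also held all 11 GABAergic markers. Dendrites held 4 to 11 GABAergic markers (median 8) against 1 to 7 glutamatergic ones (median 4.5). Summed over the 10 glutamatergic markers, neuron 15 was highest among dendrites, at 8317 normalized reads.

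**Figure D1:**
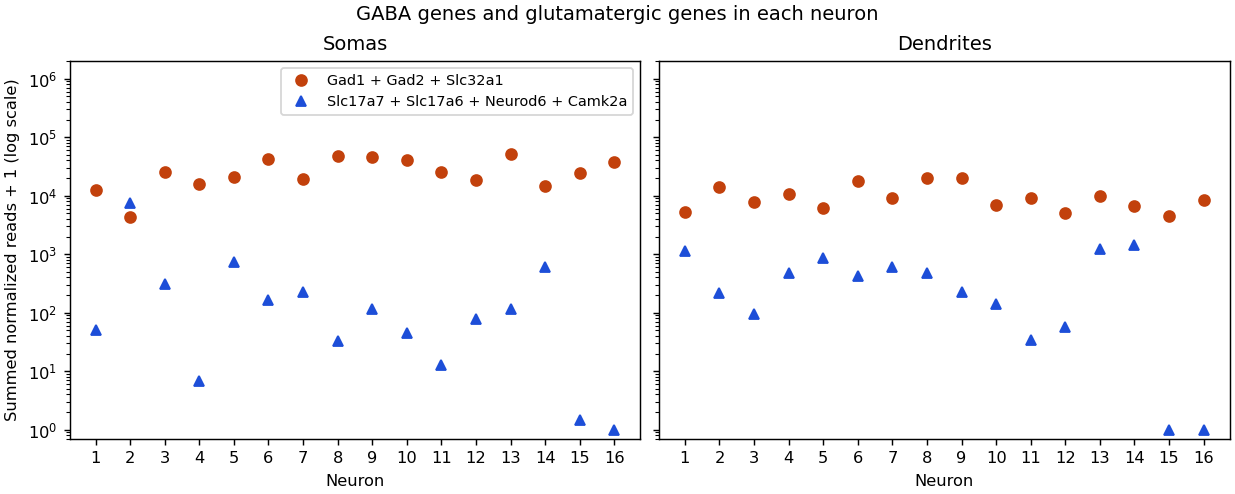
Summed normalized reads, plus 1, on a log scale for Gad1, Gad2 and Slc32a1 (circles) and for Slc17a7, Slc17a6, Neurod6 and Camk2a (triangles), by neuron, in somas (left) and dendrites (right). The circles lie between 4375 and 52610 in somas and between 4435 and 19970 in dendrites, and the soma of neuron 2 has the lowest circle and the highest triangle, 7488. Sums are of different genes, so the symbols are compared across neurons and not with each other.

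Npy and Reln, 2 of the 10 genes, were detected in every soma, which held for 5.49% of all genes in the table. Reln was the only one of them detected in every dendrite, which held for 0.86% of all genes. Npy, Reln, Pvalb and Cck were each detected in 10 or more somas, as were 18.3% of all genes, and Npy, Pvalb and Reln in 10 or more dendrites, as were 7.37%. Sst, Vip and Calb2 were each detected in 2 somas or fewer. Counted per cell, somas held 3 to 7 of the 10 genes and dendrites 2 to 7. The soma of neuron 7 held the most, with 7 (Npy, Vip, Cck, Pvalb, Reln, Nos1 and Tac1), and the somas of neurons 1 and 12 the fewest, with Npy, Pvalb and Reln alone. The smallest soma library, that of neuron 2, held 6 of the genes and the largest, that of neuron 9, held 5.

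**Figure D2:**
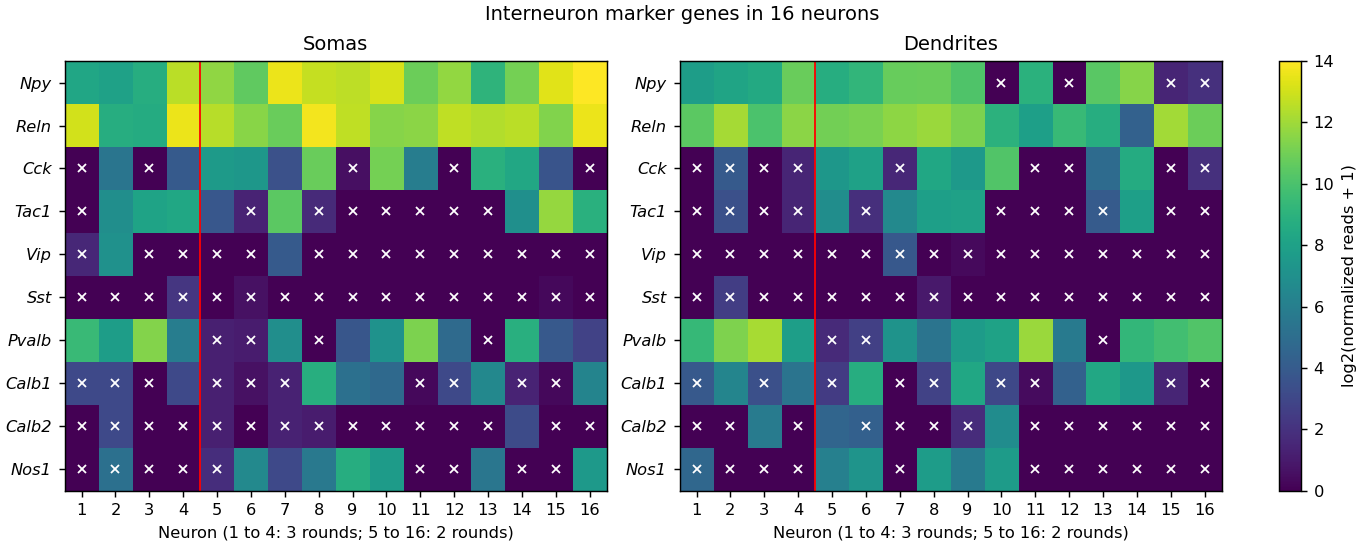
Level of each of the 10 genes, in log2(normalized reads + 1), by neuron in somas (left) and dendrites (right). A white cross marks fewer than 10 reads and the red line separates neurons with 3 rounds of amplification from those with 2. The rows of Npy and Reln have no cross in somas, and the row of Sst has a cross in every library.

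Npy encodes neuropeptide Y, which damps transmitter release. In somas it ran from 257 to 16480 normalized reads with a median of 3356, and neurons 16, 7 and 15 were highest, at 16480, 12290 and 10760. In dendrites it ran from 0 to 2758 with a median of 451, and neuron 14 was highest. The dendrite libraries of neurons 10, 12, 15 and 16 had at most 2 reads of Npy although the somas of the same cells had 9213, 3411, 10760 and 16480 normalized reads. Of these 4 libraries, 3 are the dendrite libraries named above for their few genes and their mitochondrial reads, and the part this played was not tested. The ranges of somas and dendrites overlapped.

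Reln encodes reelin, which binds lipoprotein receptors on neighbouring neurons and is made in the adult hippocampus mainly by interneurons. Its soma levels ran from 387.5 (neuron 3) to 13560 normalized reads (neuron 8) with a median of 5628, and its dendrite levels from 19.1 (neuron 14) to 4348 (neuron 2) with a median of 1955. The low value of neuron 14 rested on 12 reads. Reln also marks Cajal-Retzius cells, but of the 7 markers fixed for those cells, Reln included, a soma held between 1 and 3 and a dendrite library between 1 and 5, the most in neuron 5 (Reln, Lhx1, Ebf3, Calb2 and Ndnf). The ranges of the compartments overlapped here too.

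Cck, the precursor of cholecystokinin, was detected in 11 somas and 7 dendrites. Soma levels ran from 0 to 2149 normalized reads with a median of 28.3. Neurons 10 and 8, at 2149 and 1800, were well above the next, neuron 13 at 465. The same pair did not lead in dendrites, where neuron 10 was highest at 1175 and neuron 14 second at 392. Cck was detected in both compartments of 6 neurons and in neither of 4. Of its 2 counted 3′ ends, 1 took all 17331 end reads in somas and 99.9% of the end reads in dendrites.

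Tac1, the precursor of substance P and neurokinin A, was detected in 8 somas and 5 dendrites. Neuron 15 was highest among somas at 3537 normalized reads, followed by neuron 7 at 1426 and neuron 16 at 477, while 6 somas had 0 reads. Among dendrites neurons 9, 8 and 14 were highest, at 259, 235 and 234. Neurons 8 and 9 had 4 and 0 reads of Tac1 in the soma, and the dendrites of neurons 15 and 16 had 0 reads. The high somas and the high dendrites were thus mostly different cells, with 3 neurons detected in both compartments.

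Vip, the precursor of vasoactive intestinal peptide, was detected in the somas of neurons 2 and 7 alone, with 35 and 37 reads (134 and 14.4 normalized reads). In dendrites the most was 7 reads, in neuron 7, the cell with one of the positive somas. Sst, the precursor of somatostatin, was detected nowhere. Its 16 somas held 11 reads in all, 9 of them in neuron 4, and its 16 dendrites held 2. The highest soma level of Sst was thus 3.70 normalized reads, and 13 somas had 0 reads.

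Pvalb, which encodes parvalbumin, was detected in 12 somas and 13 dendrites. Soma levels ran from 0 to 2669 normalized reads with a median of 44.3. Neurons 3 and 11 were highest at 2669 and 2378, then neuron 1 at 727, neuron 14 at 454 and neuron 2 at 222. Dendrite levels ran from 0 to 4572 with a median of 247, and the same pair was highest, neuron 3 at 4572 and neuron 11 at 3780. Neurons 5 and 6 had 1 or 2 reads in each compartment and neuron 13 had 0 in both, so these cells were low throughout. Neuron 8 had 0 reads in the soma and 43 in the dendrites.

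Calb1 and Calb2 encode the calcium buffers calbindin and calretinin. Calb1 was detected in 6 somas, with 434 normalized reads in neuron 8, 91.0 in neuron 13 and 77.5 in neuron 16 as the highest, and in 7 dendrites, with 418 in neuron 6, 337.5 in neuron 13 and 318 in neuron 9. Neuron 13 was thus high in both and neuron 6 in dendrites only, with 1 read in its soma. Calb2 was detected in 1 soma (neuron 14, 21 reads, 8.30 normalized reads) and in the dendrites of neurons 10, 3 and 5, with 110, 55.2 and 22.2 normalized reads. No neuron had Calb2 in both compartments.

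Nos1, whose product makes the gaseous messenger nitric oxide, was detected in 7 somas and 5 dendrites. Neuron 9 was highest among somas at 421 normalized reads, followed by neuron 10 at 205, neuron 16 at 193 and neuron 6 at 95.1. Dendrites of neurons 8, 10 and 6 were highest, at 211, 206 and 153. Nos1 was detected in both compartments of neurons 6, 8, 9 and 10. The 4 neurons with 3 rounds of amplification had no detected Nos1 in soma or dendrites, against 7 somas of the 12 neurons with 2 rounds. This contrast depends in part on the minimum of 10 reads. The soma of neuron 2 had 9 reads (34.5 normalized reads), a higher level than the detected soma of neuron 7 (7.37). The dendrites of neuron 1 had 7 reads (24.4 normalized reads).

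The genes overlapped unevenly within cells. Of the 7 somas with Nos1, 5 also had Calb1 (neurons 8, 9, 10, 13 and 16), and Calb1 was detected in 1 other soma, that of neuron 4. Over the 16 somas the Spearman correlation of Nos1 with Calb1 was 0.62, and in dendrites it was 0.12. Pvalb and Nos1 ran in opposite order, with Spearman's rho of -0.56 in somas and -0.45 in dendrites. The 4 highest Pvalb somas, those of neurons 3, 11, 1 and 14, had 0 reads of Nos1. Both were detected in 4 somas, and among them neurons 10 and 7 had the most Pvalb, at 142 and 118 normalized reads. Tac1 and Pvalb, both found in many basket cells, had a rho of 0.03 in somas and -0.55 in dendrites. These correlations are across 16 cells that share depth and amplification differences, and they are descriptions.

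Genes outside the 10 were set beside them after their values were seen. Lamp5, a marker of neurogliaform cells, was highest in the somas of neurons 10, 9, 8 and 16, with 4080, 3405, 1734 and 1182 normalized reads, and these 4 all had Nos1 and Calb1. Its correlation with Nos1 was 0.76 in somas and 0.53 in dendrites. Id2, another marker of these cells, had a rho of -0.81 with Pvalb in somas and -0.49 in dendrites. Lhx6, a transcription factor of interneurons born in the medial ganglionic eminence, parvalbumin cells among them, had a rho of -0.84 with Pvalb in somas and -0.58 in dendrites. Kcnc1, the potassium channel gene of fast-firing cells, had a positive one, 0.74 in somas and 0.54 in dendrites. Of the genes shared by all interneurons, Gad1 and Gad2 followed the same order in somas, with a rho of -0.61 and -0.69 with Pvalb. Each had a rho of 0.65 with Nos1. Slc32a1, also shared, did not follow this order, at -0.08 with Pvalb and 0.08 with Nos1. Without neurons 12, 15 and 16, the dendrite values were -0.03 for Nos1 with Calb1, -0.42 for Pvalb with Nos1, -0.57 for Tac1 with Pvalb and 0.36 for Nos1 with Lamp5. For Pvalb with Id2, Lhx6 and Kcnc1 they were -0.54, -0.69 and 0.78.

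**Figure D3:**
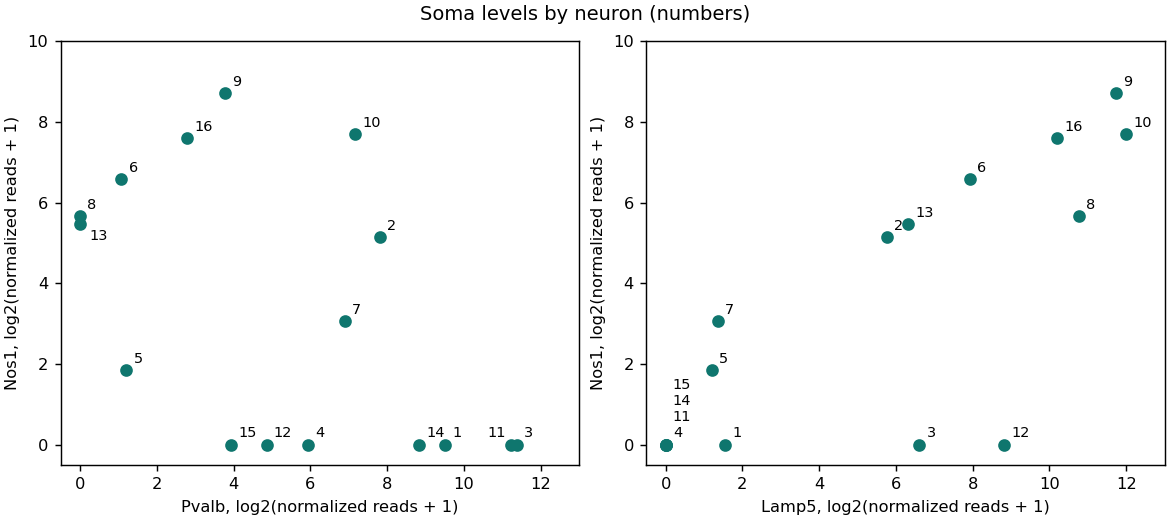
Soma levels of Nos1 against Pvalb (left) and against Lamp5 (right), in log2(normalized reads + 1), with 1 point per neuron and the neuron's number beside it. Neurons 1, 3, 11 and 14 lie along the bottom right of the left plot, with 0 reads of Nos1, and neurons 8, 9, 10 and 16 lie at the upper right of the right plot.

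Marker lists were then read per soma, by how many of their genes were detected. The parvalbumin list of 6 genes (Pvalb, Tac1, Kcnc1, Lhx6, Syt2, Erbb4) was complete in the somas of neurons 3, 4 and 7, and 5 of its genes were detected in neurons 1, 2, 11, 14, 15 and 16. The neurogliaform list of 6 (Reln, Npy, Ndnf, Lamp5, Nos1, Id2) was complete in neurons 8 and 10, and 5 of its genes were detected in neurons 2, 6, 9, 13 and 16, so neurons 2 and 16 held 5 genes of both lists. The somatostatin list of 7 reached 6 in neuron 16, with Sst itself the missing gene, and its median over somas was 4. The VIP list of 6 reached 3, in neurons 2, 10 and 14, and Vip itself was detected in the first of these. The CCK basket list of 5 reached 3, in neurons 2 and 10. Lists share genes with each other and with the 10 genes described, and Npy, Reln and Id2 were detected in all somas, so at least 3 of the 6 neurogliaform markers were found in every cell. Erbb4 was detected in 16 somas and Lhx6 in 15, and every soma held at least 2 of the 6 parvalbumin markers. In the somas of neurons 15 and 16, Pvalb itself stood at 14.3 and 5.90 normalized reads. No neuron was given a subtype name on this basis.

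**Figure D4:**
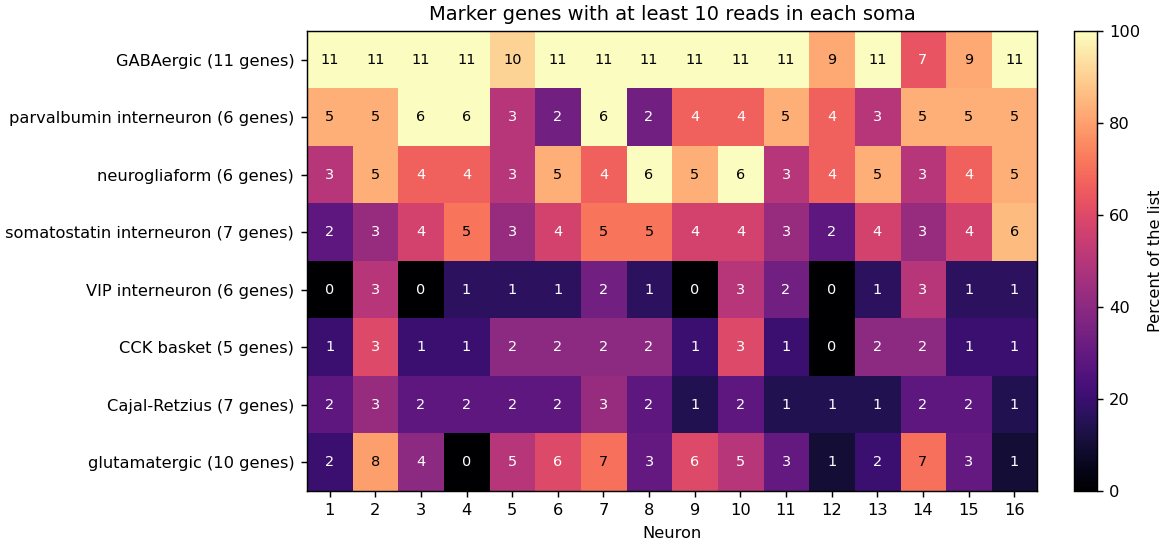
Number of genes of each marker list with at least 10 reads in the soma of each neuron, with color showing the percentage of the list. The parvalbumin row reaches 6 of 6 in neurons 3, 4 and 7, the neurogliaform row reaches 6 of 6 in neurons 8 and 10, and the other subtype rows stay below their full number.

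Depth moved some of these detections. When every library was scaled to the size of the smallest, Cck remained detected in 7 of its 11 somas, Pvalb in 8 of 12 and Calb1 in 3 of 6, namely neurons 8, 13 and 16. Nos1 was kept in 6 of 7 somas, Tac1 in 7 of 8, and Npy and Reln in all 16. With at least 1 read in place of 10, 9 of the 20 detection counts (10 genes in 2 compartments) moved by over 1.5 times. Calb1 went from 6 to 15 somas and from 7 to 14 dendrites, Sst from 0 to 3 somas and Calb2 from 1 to 5. Counting exons in place of 3′UTRs left 18 of the 20 detection counts within 1.5 times of their value. For Nos1, exon counts held 11.3% of the 3′UTR reads in somas and 1.26% in dendrites, with at least 10 exon reads in 3 somas and 0 dendrites, so its detection rests on reads placed in the 3′UTR regions. Calb1 reads also sat apart from the annotated ends, since the last 500 nt of its ends held 1.20% of its 3′UTR reads in somas and 20.5% in dendrites.

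The genes differed in whether a cell that was high in the soma was also high in the dendrites. Over 16 neurons, Spearman's rho between the compartments was 0.78 for Pvalb, 0.74 for Cck and 0.55 for Nos1. It was 0.20 for Calb1, 0.00 for Tac1, -0.05 for Npy and -0.06 for Reln. Without neurons 12, 15 and 16 (n = 13) it was 0.94 for Pvalb, 0.75 for Cck and 0.63 for Nos1, and Npy moved most, to 0.39, with 0.27 for Calb1, 0.15 for Tac1 and 0.07 for Reln. The median over the 10880 genes tested was 0.12 in both cases. Over all 16 neurons, Pvalb and Cck lay at the 99.5th and 99.1st percentiles of these genes while Npy and Reln lay at the 26.5th and 25.9th. Pvalb and Cck were at or near 0 in some cells and high in others, in both compartments, but so was Tac1, with a rho of 0.00. The part this spread played was not tested.

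The comparison of compartments asked which of these RNAs were relatively more abundant in dendrites than in somas of the same cell. It was fitted over all genes with at least 1 read in 16 of the 32 libraries, with neuron as a block, by the edgeR quasi-likelihood test with Benjamini-Hochberg adjustment. Of the 10 genes, 6 passed this filter and Sst, Vip, Calb2 and Nos1 did not and have no test. Pvalb alone of the 6 was called, and it was higher in dendrites. That is 1 of 6, against 6.53% of all genes tested in either direction and 0.827% in the direction of dendrites. None of the 6 passed in the direction of somas, against 5.71% of all genes. The median gene changed by -1.49 on the log2 scale. The change of each of the 6 genes and the list medians are therefore also given relative to it.

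Pvalb was higher in dendrites by 2.39 on the log2 scale (SE 0.75, edgeR adjusted p = 0.0439, n = 16 neurons), 3.89 above the median gene. It was higher in the dendrites of 14 of 16 neurons, lower in neuron 1 and at 0 in both compartments of neuron 13. Among the 14 were neurons 5 and 6, with equal raw reads in both compartments (1 and 2 reads). Where a neuron had at least 10 normalized reads, the dendrites held 48.2% to 100% of the summed level, with a median of 65.4% over 13 neurons. The call was close to the threshold. Without neurons 12, 15 and 16 the change was 1.86 (edgeR adjusted p = 0.0671), and in the soma of 15 and 16 Pvalb stood at 14.3 and 5.90 normalized reads against 862 and 1169 in their dendrites. Within the neurons of 2 rounds it was 2.62 (adjusted p = 0.128) and within those of 3 rounds 2.14 (adjusted p = 0.575), so the direction held in both groups. Leaving out 1 neuron at a time gave 2.12 to 2.82, with the call lost in 10 of 16 cases and adjusted p between 0.0307 and 0.0707. Without the block for neuron it was 1.59 (adjusted p = 0.487).

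Npy was lower in dendrites in 13 of 16 neurons, with a log2 change of -2.09 (SE 0.84, edgeR adjusted p = 0.0998), which is -0.60 relative to the median gene. Dendrites held a median of 20.4% of its summed level. Without neurons 12, 15 and 16 the change was -1.26 (edgeR adjusted p = 0.316), and within the neurons of 3 rounds it was 0.05. Reln was lower in the dendrites of 12 neurons, with a log2 change of -1.38 (SE 0.57, adjusted p = 0.104) that was 0.11 above the median gene, and dendrites held a median of 21.2%. It was -1.86 within the neurons of 2 rounds (adjusted p = 0.0695), 0.66 within those of 3 (adjusted p = 0.909) and -1.40 without neurons 12, 15 and 16 (adjusted p = 0.317). Neither gene passed in this test, and both passed in DESeq2 (adjusted p = 0.00725 for Npy and 0.00654 for Reln), which called 5029 of the 10880 genes higher in somas.

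The other 3 genes, Cck, Tac1 and Calb1, were not called. Their changes lay 0.27, 0.13 and 3.41 above the median gene. Cck had a log2 change of -1.23 (SE 1.15, edgeR adjusted p = 0.453), with more in the soma in 9 neurons and more in the dendrites in 4, and of -1.33 (adjusted p = 0.424) without neurons 12, 15 and 16. Tac1 changed by -1.37 (SE 2.00, adjusted p = 0.639), with 6 neurons each way, and by 0.42 (adjusted p = 0.909) without those neurons. Calb1 changed by 1.92 (SE 1.29, adjusted p = 0.292) and by 2.22 (adjusted p = 0.321) without those neurons, but by 0.23 (adjusted p = 0.951) on exon counts. Its dendrite level was above its soma level in 12 neurons, among them neurons 1, 11 and 15 with equal raw reads in both, and its ranges overlapped almost fully. Of the untested genes, Nos1 was higher in dendrites in 5 neurons and in somas in 5.

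**Figure D5:**
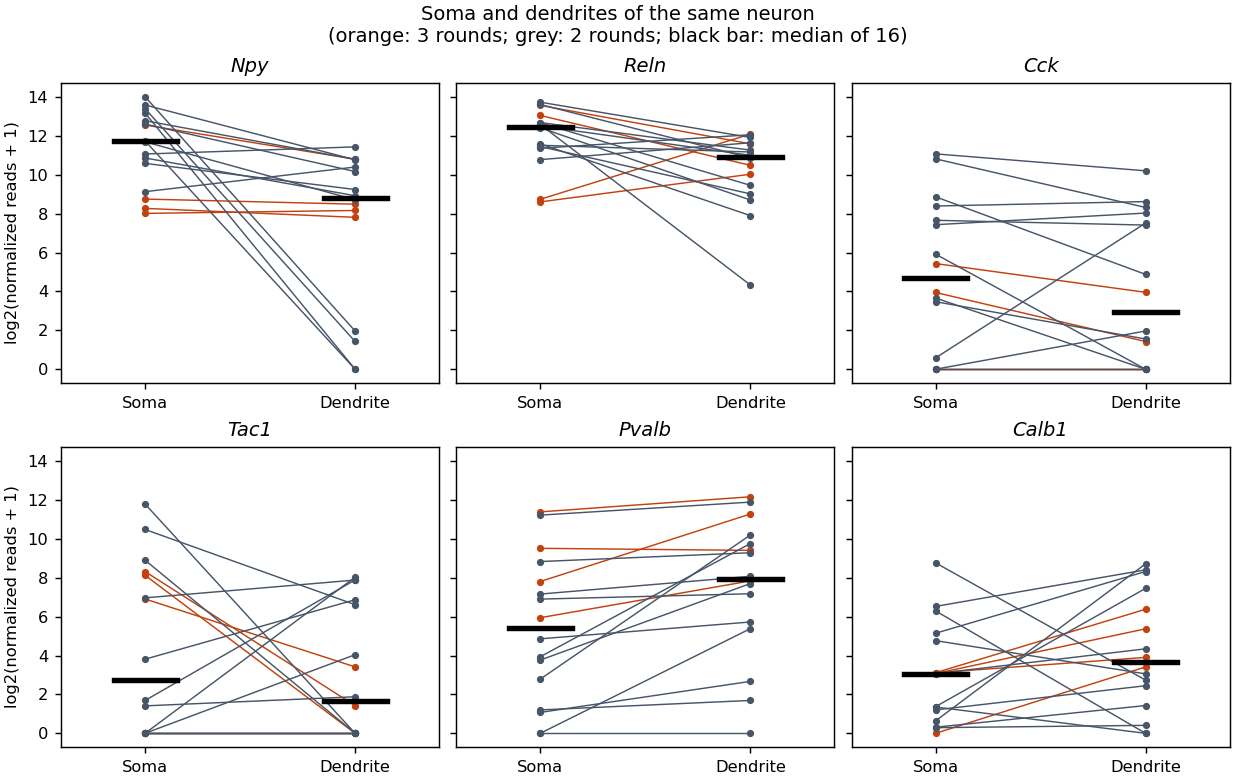
Soma and dendrite levels, in log2(normalized reads + 1), of the 6 genes tested, with a line for each neuron (orange for 3 rounds of amplification, grey for 2) and a black bar at the median of 16. For Pvalb 14 of 16 lines rise towards dendrites, and for Npy 4 grey lines fall to between 0 and 2, those of neurons 10, 12, 15 and 16.

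The labels give rounds of amplification for each neuron, and the genes were set beside them in 2 ways. The spike-in dilution of 0 falls on neurons 1 and 2 of the 3-round group alone, so it has no group of its own to compare. No gene among the 10880 tested had a compartment change that differed between rounds by edgeR (0% called, with 288 genes or 2.65% at an unadjusted p under 0.05), and among the 6 genes Tac1 had the smallest unadjusted p, 0.0427, with a difference of -7.60 and an adjusted p of 1. A comparison of the 4 somas of 3 rounds with the 12 of 2 rounds was added after seeing the data. It called 0.708% of genes higher and 0.404% lower with 3 rounds. None of the 6 genes was called. At an unadjusted p under 0.05 were Cck and Npy, against 12.5% of all genes. Cck had the largest difference, -5.41 (SE 2.23, edgeR adjusted p = 0.303), and was detected in 2 of 4 somas with 3 rounds and 9 of 12 with 2 rounds. In dendrites the same comparison called 0.0276% of genes higher and 0% lower, and none of the 6. Cck alone of them had an unadjusted p under 0.05, against 5.75% of all genes, with a difference of -6.12 (SE 2.58, edgeR adjusted p = 0.682).

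Npy stood at 257, 307, 429 and 6008 normalized reads in the somas of 3 rounds and at 558 to 16480 in those of 2 rounds. Its difference was -2.10 (SE 0.91, edgeR adjusted p = 0.338) with neuron 4, the one high value, and -4.53 without it. Neuron 4 was left out because of its Npy level, so the second value is a description with no test. The groups overlapped through neuron 4 only. Neurons 1 to 4 may also differ from the rest in ways the labels do not give, so rounds and other properties of these cells cannot be told apart.

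Lists of related genes were read from the same fit. Of 28 other interneuron genes, 22 were tested, with 0 calls towards dendrites and 3 towards somas, against 0.827% and 5.71% of all genes. At an unadjusted p under 0.05 were 9 of the 22, against 30.2% of all genes. The 3 called were the transcription factor Dlx6 (log2 change -6.02), Id2, an inhibitor of helix-loop-helix factors (-2.27), and Nxph1, a ligand of neurexins (-2.63). The list median of -1.46 was 0.03 above the median gene. The list for GABA handling gave 5 tested, with 0 calls towards dendrites and 2 towards somas. Its median was -0.74, or 0.75 above the median gene. Gad1 was among those called higher in somas, with a log2 change of -1.58. Of 15 other neuropeptide precursors, 3 were tested and 0 called, and of 15 receptors for these peptides, 2 were tested and 0 called.

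For the machinery that cleaves and packs neuropeptides, all 15 listed genes were tested and 0 were called, with a median log2 change of -1.35. The reelin receptors and their signalling partners gave 9 tested and 0 called, with a median of -1.12. Nitric oxide and cyclic GMP signalling gave 8 tested of 10 and 0 called, with a median of -0.13. At an unadjusted p under 0.05 the numbers were 4, 1 and 1, against 30.2% of all genes. Glutamatergic markers gave 6 tested and 0 called, with a median of 2.36. These medians, in the order given, lay 0.14, 0.38, 1.36 and 3.85 above the median gene.

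Markers of other cell types varied between the same libraries. Summed over 6 genes, astrocyte markers ran from 1.21 to 1453 normalized reads in somas and from 0 to 2778 in dendrites. Microglial markers ran from 0 to 34.5 in somas and from 0 to 1229 in dendrites, with the highest in neuron 13. Oligodendrocyte markers ran from 0.246 to 883 in somas and from 0 to 1775 in dendrites, and 5 endothelial markers from 0 to 348 in somas and from 0 to 139 in dendrites, with Cldn5 of this list at 0 reads throughout. Detection differed within these lists. Gfap, a defining gene of astrocytes, was detected in 2 somas and 2 dendrites, but Slc1a2 of the same list in 14 somas and 13 dendrites. C1qa, a complement gene of microglia, was detected in 0 of either, but Cx3cr1 of the same list in 3 somas and 3 dendrites. Olig1 of the oligodendrocyte list was detected in 9 somas and 9 dendrites. Of the tested genes of these lists, 3, 0, 3 and 1 in that order, 0 were called between compartments. The median log2 change was 0.71 for astrocyte and 2.07 for oligodendrocyte genes, and the 1 endothelial gene changed by 1.65. These values lay 2.20, 3.56 and 3.15 above the median gene. The part these cell types played in the levels of the 10 genes was not tested.

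For each of the 7 genes detected in at least 4 somas, the genes with the most similar order over the 16 somas were taken from 9252 genes detected in at least 8 somas. For Pvalb these were Osbpl1a, Fam13a and 6030458C11Rik, with Spearman's rho of 0.90, 0.88 and 0.88, and for Nos1 they were Nkain1, Adi1 and Pnck, with 0.84, 0.83 and 0.82. Npy was most like Yif1b, Plxdc2 and Exoc6b (0.83, 0.76 and 0.76) and Reln was most like Hsp90b1 and Ctsf (0.86 and 0.84). For Cck they were Pigx, Grn and Phka2 (0.77, 0.76 and 0.75), for Calb1 Srrd, Pygo1 and Clip1 (0.87, 0.85 and 0.84), and for Tac1 AI462493, Diras2 and Nrbp1 (0.85, 0.83 and 0.77). In dendrites, which were not used to pick them, these 20 pairs had rho between -0.16 and 0.57.

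The 10 genes lie on 8 chromosomes of GRCm38. Npy is on chromosome 6 (chr6:49822710-49829507, plus strand) and shares that chromosome with Tac1 (chr6:7554879-7565834, plus strand). Reln (chr5:21884454-22344702, minus strand) and Nos1 (chr5:117781032-117958840, plus strand) are on chromosome 5. Both of these overlap predicted genes, 3 on the same strand for Reln and 1 for Nos1, while the other 8 overlap no annotated gene. Pvalb (chr15:78191114-78206400) and Sst (chr16:23889573-23890958) are on the minus strand, as are Cck and Calb2, and Vip and Calb1 are on the plus strand. Of the 10 annotated 3′ ends of Reln, 1 took 98.8% of the end reads in dendrites and 99.1% in somas. Npy, Pvalb, Sst and Vip each have a single counted end. Ends lying close together were merged before counting, so a choice among such ends could not be measured for these genes.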

How the data were processed

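Soma and dendrite RNA of 16 cultured mouse hippocampal neurons had been amplified by the aRNA method and sequenced strand-specifically, in 32 libraries. The authors aligned trimmed reads to mm10 with STAR 2.4.0 (version from the submitters' processing notes) and counted uniquely mapped reads with VERSE. The deposited values are raw read counts, without normalization, on the union of each gene's 3′UTRs (44081 genes), on 74532 single 3′ ends (last 500 nt, ends closer than 500 nt merged) and on exons (23453 genes). The labels give compartment, neuron and rounds, and all value columns were matched to samples. Among the libraries 0 pairs were identical.

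From these counts, compartments were compared with edgeR 4.0.16 (TMM, robust quasi-likelihood test) in R 4.3.3, on the 10880 genes that had 1 read or more in at least 16 libraries, at an adjusted p of at most 0.05, with DESeq2 1.42.0 and limma 3.58.1 voom as alternatives. Other values were computed with Python 3.11, pandas 2.3.3 and SciPy 1.17.1. Correlations used log2(normalized reads + 1). Gene positions came from GENCODE on GRCm38, the build called mm10. Library totals were 646521 to 21169974 reads. Precision was taken from the spread between neurons. Since neurons were not labelled by culture, p-values measure the spread between these neurons only. The edgeR step was also tested on simulated data, with no outcome given here.

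Pairing comes from the cells. After each gene's compartment mean was removed, the correlation across genes between soma and dendrites within a neuron had a mean of 0.0851 ± 0.0741 (SD, n = 16). Between neurons the mean was -0.00533 ± 0.0515 (SD, n = 240).

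The genes described and all lists were chosen with earlier results of these data known. Named besides them are list genes that passed the test, the GABA and glutamatergic identity genes, and the 3 genes most correlated over somas with each gene detected in at least 4 somas. An item that this rule included is not reported here. Lamp5, Lhx6 and Kcnc1 were named after their values were seen. Alternatives covered the test, scaling, filter, block, exon counts, rounds, neurons left out, and the read minimum and depth for detection. Protein and 3′UTR sequences were not used here.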

Additional observations from a re-analysis of the deposited data

Results flagged for a closer look

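The exon counts, which the comparisons of compartments did not use as their main measurement, held reads of Vip in libraries with 0 reads on its 3′UTR. The soma of neuron 14 had 120 exon reads of Vip, which would make it 1 more soma with Vip detected beside those of neurons 2 and 7, and the dendrites of neuron 15 had 9 exon reads. Both counts are above the limit of 3 reads that a count of 0 allows. Over all somas, exon counts of Vip came to 193 reads against 73 on the 3′UTR.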

How the results depend on the processing

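Of the 6 genes tested between compartments, 1 was called in the edgeR test with the block. DESeq2 and limma voom each called 3, Pvalb, Npy and Reln. The count was 0 without the block for neuron, with DESeq2 size factors in edgeR, in the neurons of 2 rounds, in those of 3 rounds, and without neurons 12, 15 and 16, a setting chosen after seeing the data. With no filter beyond 1 read it was 1, but the gene was Npy (adjusted p = 0.0286) and Pvalb missed (adjusted p = 0.104). Leaving out 1 neuron at a time gave 0 to 1. The call of Pvalb was lost without neurons 2, 3, 4, 6, 7, 8, 9, 10, 11 or 16, and without neuron 2 Reln was called (adjusted p = 0.0494). Over 11 other settings Pvalb ranged from 1.59 to 3.88 and was called in 5.

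Changes that turned sign were those of Npy (0.0487) and Reln (0.66) in the neurons of 3 rounds, of Cck (0.22) and Reln (0.11) when the median gene was centred at 0, also chosen after seeing the data, and of Tac1 with limma voom (0.0485), in the neurons of 2 rounds (1.17) and without neurons 12, 15 and 16 (0.42). The difference of the Pvalb change between rounds was -0.69 with the block and 0.0438 without it. The causes were not tested. Over all genes, the split of calls higher in dendrites and in somas was 90 and 621 by edgeR, 463 and 5029 by DESeq2, 650 and 1605 by limma voom, 81 and 1008 with DESeq2 size factors, 157 and 77 without the block, 43 and 354 in the neurons of 2 rounds, 4 and 1 in those of 3, 548 and 92 with the median gene centred, 50 and 98 without neurons 12, 15 and 16, 15 and 143 with no filter and 98 and 257 on exon counts. Sst, Vip, Calb2 and Nos1 had too few libraries with reads for the filter and were not tested.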

Other observations

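Pnoc, the precursor of nociceptin, is named here because of its values. It was detected in all 16 somas, with a log2 change between compartments of -2.57 (SE 0.87, edgeR adjusted p = 0.0595). Cort, which encodes cortistatin, a peptide related to somatostatin, is named for the same reason. Its soma levels were highest in neurons 16, 8 and 15, at 99.6, 81.7 and 81.0 normalized reads, and it had 0 reads in the 4 somas with 3 rounds of amplification.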
